A study of Homo sapiens with 6 samples.

Results

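The 33 genes described here mark neuroendocrine cells and neurons, and they were compared between 2 human lung cancer cell lines. They were taken by symbol from a fixed list, and all 33 were found among the 27968 genes of the deposited tables. The list holds transcription factors, secretory granule proteins and the enzymes that process their cargo, peptides and an amine-making enzyme, synaptic vesicle proteins, adhesion molecules, neuronal intermediate filaments, RNA-binding proteins, microtubule and growth cone proteins, and the ubiquitin hydrolase UCHL1. A549 is an established line of lung adenocarcinoma cells, represented by 3 independent cultures grown in DMEM. H23 is another established lung adenocarcinoma line, represented by 3 independent cultures grown in RPMI medium. Both media held 10% fetal bovine serum, no culture was treated, and RNA was taken at about 80% confluence for stranded total RNA libraries with ribosomal RNA removed. The line and its medium cannot be told apart in this design, and each line stands for itself alone.

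Pulmonary neuroendocrine cells are rare epithelial cells of the airway that store peptides and amines in dense-core granules and release them with the same docking proteins that neurons use. The granins and their processing enzymes build those granules, and synaptophysin and synaptotagmin sit on vesicles. Of the neural adhesion molecules, NCAM1 is used by pathologists to recognise neuroendocrine lung tumours. The transcription factors NEUROD1 and INSM1 take part in this programme, whereas the repressor REST binds a long element, RE1, and silences many neuronal genes in other tissues.

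The libraries held 23399562 to 25348083 expected counts in A549 and 29395795 to 42421642 in H23. Levels are given as CPM, expected counts relative to the library's total, scaled by TMM factors of 0.985 to 1.02 for comparisons between lines, and as TPM, which is also divided by transcript length, for comparisons between genes. Genes under 200 bases took 15.7% to 19.7% of all TPM in A549 and 0.112% to 0.242% in H23, so all other genes share a smaller remainder of TPM in A549. Both lines carried carcinoma keratins, with KRT8 at 1436 ± 8.72 TPM in A549 and 1435 ± 99.8 TPM in H23 and KRT18 at 1859 ± 22.2 TPM in A549 and 2618 ± 19.4 TPM in H23 (SD, n = 3 each). In CPM, KRT8 was called higher in A549 (log2 fold 0.55 ± 0.07), and 2 further keratins were far higher in A549, with KRT7 at 2490.0 TPM in A549 and 1.20 TPM in H23 and KRT19 at 50.9 TPM in A549 and 5.65 TPM in H23. Of 15 carcinoma markers, 9 were tested, with 3 calls towards A549 and 4 towards H23. Of all genes tested, 37.6% were called towards A549 and 39.6% towards H23, so these counts say little about the markers. Among those 4 were CDH1, with log2 folds of -1.93 to -1.32 over all settings, FOXJ1, with -6.35 to -4.16, and NKX2-1, with -9.55 to -1.66. The NKX2-1 fold is fitted against 0 counts in A549 and is no bound. Among markers of distal lung, NKX2-1 had 0 counts in A549 and 2.18 TPM in H23, and SFTPC had 2 counts in A549 and 0 in H23 over the 3 libraries of a line. The other distal lung markers of the list are not reported here. Among blood cell markers, PTPRC had 1 count in A549 and 0 in H23 and CD3E had none in either line, and the 8 markers summed to 5.96 to 6.74 TPM in A549 and 6.5 to 13.5 TPM in H23, most of it CD14 and CD68. Of 9 glial markers the sum was 15.2 to 16.7 TPM in A549, nearly all MBP, and 5.41 to 6.94 TPM in H23. The glial factor SOX10 had 3 counts in A549 and 0 in H23, S100B had none in either line, and OLIG2, another glial factor, had none in A549 and averaged 2.35 ± 0.63 TPM in H23, at least 82.8-fold higher in H23. The 9 fibroblast and endothelial markers summed to 2.04 to 2.63 TPM in A549 and 6.10 to 9.79 TPM in H23. COL1A1, one of them, averaged 1.52 TPM in A549 and 6.10 TPM in H23, whereas DCN was at 0 in both lines. The part of such markers in the results was not tested.

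Promoter windows of NRCAM, CHGA and PCSK1 are shown here because each carries an exact cyclic AMP response element, a site bound by CREB. Their genes also differ widely in level: NRCAM was abundant in A549 and nearly silent in H23, CHGA was found at a low level in A549 alone, and PCSK1 was scarce in both lines. Each sequence is the 250 bases before a RefSeq transcription start in GRCh38.p14, written along the gene's strand with the element in capitals.
NRCAM, chr7:108243386-108243635, minus strand: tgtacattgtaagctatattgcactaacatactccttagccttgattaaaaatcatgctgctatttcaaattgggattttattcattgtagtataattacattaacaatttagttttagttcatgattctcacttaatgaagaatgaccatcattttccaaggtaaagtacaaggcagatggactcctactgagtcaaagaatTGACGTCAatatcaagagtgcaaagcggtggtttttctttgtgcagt
CHGA, chr14:92922900-92923149, plus strand: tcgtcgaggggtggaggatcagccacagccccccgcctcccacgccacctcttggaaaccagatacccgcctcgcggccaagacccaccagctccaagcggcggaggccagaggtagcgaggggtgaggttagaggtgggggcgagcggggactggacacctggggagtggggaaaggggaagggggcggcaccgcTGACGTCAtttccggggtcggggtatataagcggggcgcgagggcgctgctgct
PCSK1, chr5:96433249-96433498, minus strand: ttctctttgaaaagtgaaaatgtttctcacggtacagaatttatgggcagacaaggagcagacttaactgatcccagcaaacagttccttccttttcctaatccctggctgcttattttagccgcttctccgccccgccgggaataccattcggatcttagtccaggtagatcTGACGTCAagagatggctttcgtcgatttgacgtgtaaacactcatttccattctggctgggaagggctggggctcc
The first base of the element TGACGTCA lies at -47 in NRCAM, -54 in CHGA and -77 in PCSK1, counted from the start. RefSeq windows of 300 bases, 250 before and 50 after a start, were at hand for 22 of the 33 genes, in 43 windows, and 3 of the 43 held this element on either strand, against 1.85% of all 35116 windows. The letters CAGATG, an E-box that NEUROD1 can bind, were found on either strand in 9 windows of 7 genes, which are DCX, ELAVL4, INA, L1CAM, MAP2, NRCAM and UCHL1, against 14.7% of all windows. The consensus RE1 element of REST, searched on both strands with up to 4 mismatches, was in 0 of the 43 windows and in 0.308% of all. These matches describe the sequence alone, and the libraries hold no measure of binding. A gene can have several RefSeq starts, and whether a start shown here was in use in either line was not tested.

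The list split between the lines by gene, with NRCAM, SYT1, SNAP25 and DDC on the A549 side and CHGB, SCG2, the neurofilament genes, L1CAM and MAPT on the H23 side. Of the 33 genes, 19 had enough counts for edgeR's quasi-likelihood F test, run over 15426 genes with adjustment by Benjamini-Hochberg and a threshold of 0.05. Of those 19, 7 were called higher in A549, where 37.6% of all tested genes were, although 5 or 6 were called higher in A549 under upper quartile scaling or on TPM. The other 12 were called higher in H23, as 39.6% of all tested genes were, and 13 were on both TPM scales with a pseudocount. In either direction 77.2% of all genes tested were called, so a call by itself says little here, and a gene that passed the filter through its higher line alone had to differ. Such genes, counted among the 7 and the 12, include NRCAM and DDC in A549 and ELAVL3, ELAVL4 and NEFH in H23. Their calls and p values are therefore no separate support for a difference, and their folds enter the median of the 19. The median log2 fold of A549 over H23 was -2.23 for the 19 genes and -0.03 for all genes tested. Calls over all genes were higher in A549 in 48.7% of cases, against 31.7% on log2(TPM + 1) and 31.6% on log2(TPM + 0.1), where the median of all genes moved to -0.41 and -0.54. All libraries of one line lay above all of the other for the 19 tested genes, as they did for 82.0% of all genes tested. In bulk RNA, fewer cells carrying a transcript and less of it per cell cannot be told apart.

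The untested 14 genes include NEUROD1 and INSM1. NEUROD1, the convertase gene PCSK2 and GRP, the gene of gastrin-releasing peptide, had 0 counts in all 6 libraries. INSM1, CALCA and STMN2 had 1 count each in H23 and 0 in A549, and DCX had 1 count in A549 and 0 in H23. A count of 0 over the 3 libraries of a line allows up to 3 counts, which is 0.0415 CPM for A549 and 0.0272 CPM for H23. These limits cover counting error only.

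**Figure D1:**
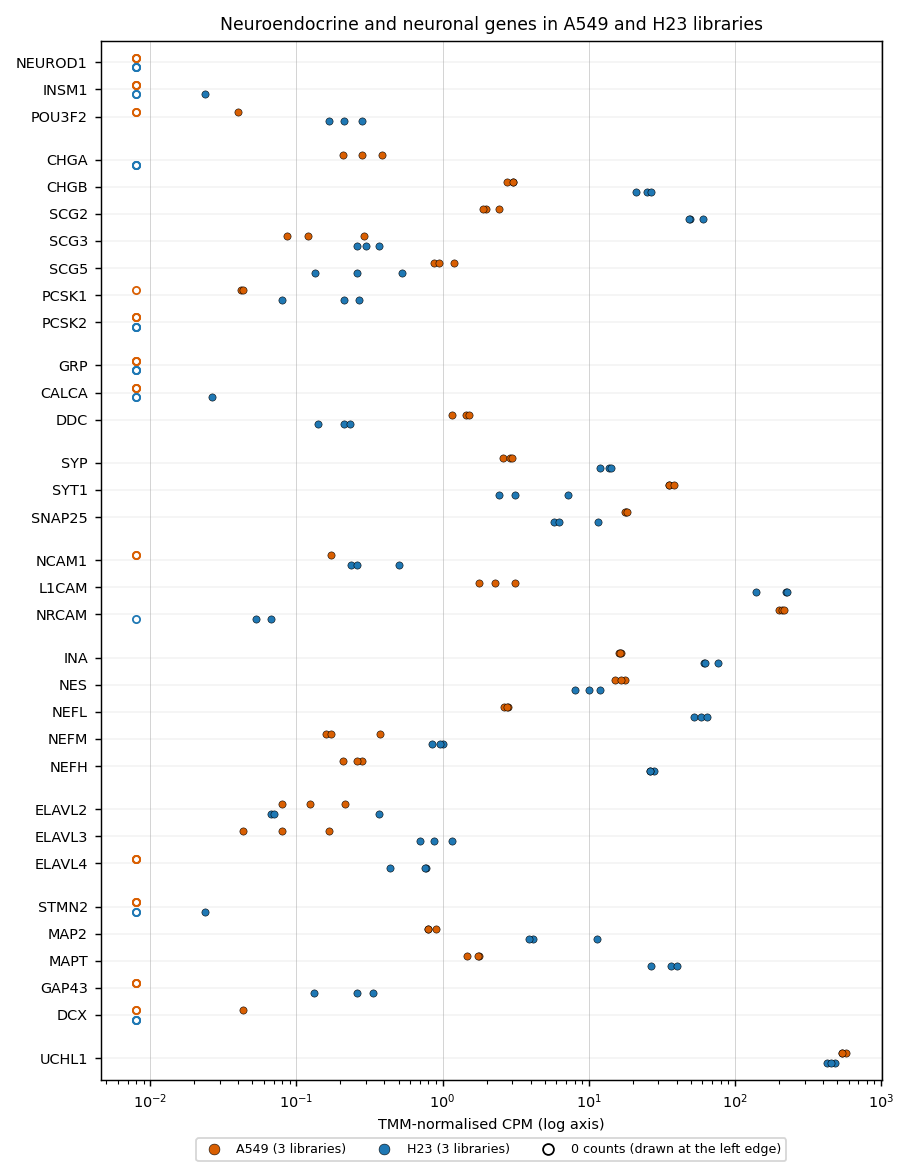
TMM-scaled CPM of each gene in every library on a log axis, A549 points above H23 points, with genes grouped by role and open points at the left edge for 0 counts. UCHL1 stands far above the rest in both lines, NRCAM reaches 201 to 216 CPM in A549 alone, and L1CAM reaches 139 to 228 CPM in H23.

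Of the 3 transcription factors on the list, only POU3F2, a POU-domain factor of neural progenitors also known as BRN2, was seen more than once. It had 0, 1 and 0 counts in A549 and 8, 5 and 12 counts in H23, with no overlap. The ratio of H23 to A549 was 16.4, with a 95% counting interval of 2.68 to 673, and with every gene kept in the fit edgeR gave an adjusted p of 0.00705. INSM1, a zinc finger factor needed for neuroendocrine differentiation, and NEUROD1 were at or near 0 as above. POU2F3, the factor of tuft cells, had 0 counts in A549 and 1 in H23.

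REST, the repressor of neuronal genes, was at 48.7, 44.7 and 47.2 CPM in A549 and 34.95, 15.5 and 16.9 CPM in H23. H23 replicate 1 lay between the other H23 libraries and A549. The log2 fold was 1.06 ± 0.31 (SE, edgeR adjusted p = 0.0160), and the call was lost on log2(TPM + 1) (adjusted p = 0.0839), on log2(TPM + 0.1) (0.0804) and without H23 replicate 3 (0.0522). Over all alternatives its fold ranged from 0.50 to 1.52 and its adjusted p from 3.22e-17 to 0.0839, by edgeR, DESeq2 or limma. RCOR2, a corepressor of the family that works with REST, was at 1.496, 1.40 and 1.55 CPM in A549 and 11.8, 20.9 and 20.8 CPM in H23 (log2 fold -3.59 ± 0.27, edgeR adjusted p = 2.39e-05). Its more abundant relative RCOR1 averaged 45.0 CPM in A549 and 48.6 CPM in H23 and was not called (log2 fold -0.11 ± 0.11, edgeR adjusted p = 0.375). RCOR3 averaged 14.3 CPM in A549 and 14.5 CPM in H23 and was not called either (log2 fold -0.02 ± 0.14, edgeR adjusted p = 0.899). The part of REST or of these corepressors in the other differences was not tested.

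The wider list of neuroendocrine fate regulators held 35 genes, of which 15 were tested, with 3 calls towards A549, 8 towards H23 and a median log2 fold of -0.82. SOX2, a factor of airway basal and neural stem cells, was the largest of the A549 side at 1.98 ± 0.26. DLL3, a Notch ligand of neuroendocrine tumours, had a log2 fold of 0.29 ± 0.10 (edgeR adjusted p = 0.0349) that turned to -0.24 on log2(TPM + 1) and was 0.88 once a trend with GC and length was taken out. The DLL3 call was also lost under upper quartile scaling (edgeR adjusted p = 0.191), with a replicate block (0.0962) and on leaving out any single library other than H23 replicate 1 (0.0608 to 0.0989). ISL1, a LIM-homeodomain factor, had 0 CPM in the 3 A549 libraries and 4.62, 3.44 and 3.41 CPM in H23, at least 92.4-fold higher in H23. MYT1, a zinc finger factor of neurons and endocrine cells, had a log2 fold of -4.32 ± 0.22. YAP1, a Hippo pathway coactivator low in many neuroendocrine tumours, averaged 18.2 ± 0.60 TPM in A549 and 57.9 ± 3.71 TPM in H23 (SD, n = 3 each), with a log2 fold in CPM of -1.08 ± 0.09.

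CHGB and SCG2, granins that pack the dense-core granule, were higher in H23. CHGB had 3.03, 2.76 and 3.02 CPM in A549 and 21.2, 24.96 and 26.9 CPM in H23. SCG2, the granin that is cut into secretoneurin, had 1.995, 2.44 and 1.90 CPM in A549 and 60.7, 48.95 and 48.9 CPM in H23. Every H23 library was several times above every A549 library for both, with log2 folds of -3.05 ± 0.13 and -4.64 ± 0.16 (edgeR adjusted p = 2.31e-06 and 9.33e-07). In length-scaled terms SCG2 was the most abundant granin in H23 at 34.2 ± 2.52 TPM, followed by CHGB at 15.4 ± 2.54 TPM.

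CHGA, the granin most used as a tumour marker, had the opposite pattern at the edge of detection. Its expected counts were 5, 7 and 9 in A549 and 0 in each H23 library. Against the floor CHGA was at least 10.7-fold higher in A549, which leaves out counting error in its A549 counts. It did not reach the main filter, and with every gene kept edgeR gave an adjusted p of 0.00190. CHGA thus averaged 0.187 ± 0.059 TPM in A549, below CHGB in the same libraries at 1.27 ± 0.10 TPM. SCG3, which sorts chromogranins into granules, had 0.291, 0.120 and 0.0862 CPM in A549 and 0.370, 0.301 and 0.259 CPM in H23. The SCG3 values of the lines overlapped, and with every gene kept the edgeR adjusted p was 0.185.

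SCG5, the chaperone 7B2 of the convertase PCSK2, had 0.873, 1.20 and 0.949 CPM in A549 and 0.528, 0.134 and 0.259 CPM in H23, with no overlap although its partner PCSK2 was at 0. Its log2 fold was 1.67 ± 0.44 (edgeR adjusted p = 0.0105) and 2.27 without H23 replicate 1, the highest H23 library. PCSK1, the other convertase of neuroendocrine granules, had 1, 0 and 1 counts in A549 and 3, 8 and 9 in H23. That is a ratio of H23 to A549 of 6.56 with a 95% counting interval of 1.59 to 57.9, and an adjusted p of 0.0381 in edgeR with every gene kept.

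DDC, the decarboxylase that makes dopamine and serotonin, was the 1 tested gene among peptides and amines. Its levels were 1.455, 1.16 and 1.51 CPM in A549 and 0.211, 0.234 and 0.141 CPM in H23, which did not overlap. The log2 fold was 2.81 ± 0.28 (edgeR adjusted p = 9.00e-05), at a mean of 0.827 ± 0.131 TPM in A549. SLC18A2, the vesicular transporter that loads such amines, was also called higher in A549, at a log2 fold of 1.89 ± 0.60 (edgeR adjusted p = 0.0228). Without H23 replicate 1 the SLC18A2 fold was 3.07, and leaving out any other single library gave adjusted p values of 0.0506 to 0.0601.

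A list of 32 other dense-core granule genes, none of them among the 33, had 22 tested, with 6 calls towards A549, 13 towards H23 and a median log2 fold of -1.81. RAB27B and RAB3B, small GTPases that dock granules, were higher in A549 at 4.84 ± 0.30 and 3.06 ± 0.13. Their relative RAB3A was higher in H23 at -4.36 ± 0.34, as were the calcium sensors SYT5 at -5.92 ± 0.47 and SYT7 at -4.04 ± 0.14. RAB27B had 62.8, 60.9 and 57.8 CPM in A549 and 3.14, 1.87 and 1.32 CPM in H23. Once the trend with GC and length was taken out, the fold of RAB27B was 4.09, that of RAB3A -3.71 and that of SYT5 -5.32, and without A549 replicate 3 SYT5 was at -6.61. Among the neuropeptides and their receptors, 10 of 30 genes were tested, with 2 calls towards A549, 7 towards H23 and a median of -3.66. NTS, the neurotensin precursor, had 17.2, 17.65 and 16.2 CPM in A549 and 4.91, 2.51 and 2.66 CPM in H23, with a log2 fold of 2.33 ± 0.26 that shrank to 0.89 with that trend taken out.

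The neurotensin receptor had the reverse pattern of its ligand. NTSR1 had 0, 0 and 1 counts in A549 and averaged 43.5 ± 13.2 TPM in H23, and the ratio of H23 to A549 was 7850 with a 95% counting interval of 1410 to 310000. NPY, a peptide of neurons and chromaffin cells, was at 0 in A549 and at 9.56, 11.9 and 10.8 CPM in H23, at least 257-fold higher. CALCB, the beta form of calcitonin gene-related peptide, was at 0 in A549 and at 1.24, 1.27 and 1.93 CPM in H23, at least 36.5-fold higher. Its neighbour in function CALCA had the single H23 count given above, and RSEM's division of reads shared by this similar pair adds an error outside the tests.

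Among the vesicle proteins, SYT1 and SNAP25 were higher in A549 and SYP was higher in H23. SYT1, the calcium sensor of synchronous release, had 35.3, 35.3 and 38.5 CPM in A549 and 7.27, 2.44 and 3.15 CPM in H23. SNAP25, the membrane SNARE of neurons, had 17.9, 17.7 and 18.3 CPM in A549 and 11.6, 5.81 and 6.28 CPM in H23. SYP, synaptophysin of the vesicle membrane, had 2.58, 2.92 and 2.98 CPM in A549 and 12.0, 13.7 and 14.1 CPM in H23. The A549 libraries were tightly grouped for all 3 genes, and H23 replicate 1 was the nearest H23 library to A549 for SYT1 and SNAP25.

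The log2 folds of SYT1 and SNAP25 were 3.08 ± 0.39 and 1.18 ± 0.26 (edgeR adjusted p = 0.000313 and 0.00502), and that of SYP was -2.23 ± 0.13 (edgeR adjusted p = 6.68e-06). The SYT1 fold was 3.67 without H23 replicate 1 and 2.37 with the trend of GC content and length removed. SNAP25-AS1, on the opposite strand, had 8 counts in A549 and 42 in H23 over the 3 libraries, and the strand setting of the counting is not given in the sources used here, so reads of such pairs cannot be told apart. Antisense or intronic partners of the other genes were scarcer still, at most 2 counts per line for DDC-AS1, MAPT-AS1, NCAM1-AS1, SYP-AS1 and UCHL1-AS1, and 1 count in A549 and 9 in H23 for MAPT-IT1.

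The broadly expressed relatives of SNAP25 and SYP had small folds. SNAP23, the SNARE of non-neuronal cells, averaged 19.4 ± 0.53 TPM in A549 and 23.5 ± 1.68 TPM in H23, and its log2 fold in CPM of 0.28 ± 0.08 (edgeR adjusted p = 0.0123) turned to -0.26 on log2(TPM + 1) and to -0.2 with the GC and length trend removed. SYPL1, a synaptophysin relative of many tissues, had a log2 fold of -0.28 ± 0.11 (edgeR adjusted p = 0.0482), and this call was lost under 7 other settings. In TPM, SNAP25 at 10.0 ± 0.54 in A549 and 6.33 ± 2.22 in H23 stayed below SNAP23 in both lines.

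**Figure D2:**
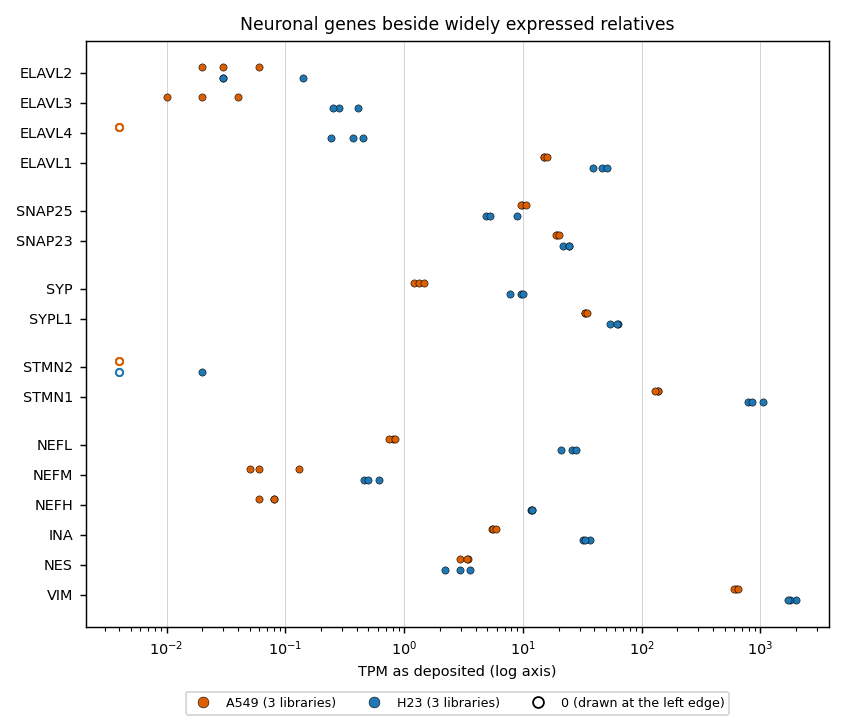
TPM in each library, on a log axis, of neuronal genes beside their broadly expressed relatives, with A549 points above H23 points and open points at the left edge for 0. SNAP23, SYPL1 and ELAVL1 lie above SNAP25, SYP and the neuronal ELAVL genes in both lines.

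In the list of 36 synaptic vesicle and SNARE genes, 27 were tested, with 4 calls towards A549, 19 towards H23 and a median log2 fold of -1.85. The A549 count was 2 under upper quartile scaling and on TPM. CPLX2, a complexin that clamps SNARE complexes, had 533, 514 and 513 CPM in A549 and 0.0528, 0.1002 and 0 CPM in H23. It averaged 123 ± 4.26 TPM in A549, well above every gene of the 33 other than UCHL1, with a log2 fold of 13.35 ± 0.33 (edgeR adjusted p = 2.74e-07). The fold was 14.12 without H23 replicate 2 and 12.69 without H23 replicate 3. STX1A, the syntaxin that pairs with SNAP25, was higher in A549 at 1.28 ± 0.10. SNAP47, a further SNAP25 relative, had a log2 fold of 0.36 ± 0.12 that turned to -0.23 on log2(TPM + 1) and was 0.96 with the GC and length trend removed. The SNAP47 call was also lost under upper quartile scaling (edgeR adjusted p = 0.109) and without any single A549 library (0.0550 to 0.0727).

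On the H23 side of the same list, SV2A, a vesicle glycoprotein, had 0.0416, 0.0799 and 0.0431 CPM in A549 and 22.85, 36.2 and 39.1 CPM in H23 (log2 fold -9.10 ± 0.39, edgeR adjusted p = 2.10e-06). SYPL2, a synaptophysin relative of muscle, was at 0 in A549 and at least 88.3-fold higher in H23. The vesicular glutamate transporter gene SLC17A7 had a ratio of H23 to A549 of 186, with a 95% counting interval of 63.4 to 904.

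Of the 3 adhesion molecules, all of the immunoglobulin superfamily, NRCAM was higher in A549 and L1CAM was higher in H23. NRCAM had 201, 210.4 and 216 CPM in A549 and 0.0528, 0.0668 and 0 CPM in H23, which is 2, 2 and 0 counts. L1CAM, an axon adhesion molecule linked to cell migration, had 3.12, 2.28 and 1.77 CPM in A549 and 139, 225 and 228 CPM in H23. NRCAM, which binds ankyrin at nodes of Ranvier, was thus seen in H23 by 4 reads, whereas L1CAM was present in A549 at a low level.

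The NRCAM log2 fold was 12.33 ± 0.31 (edgeR adjusted p = 2.82e-07), 11.68 without H23 replicate 3 and 11.58 with the GC and length trend removed. The ratio of A549 to H23 was 5760, with a 95% counting interval of 2250 to 21200. The L1CAM log2 fold was -6.37 ± 0.31 (edgeR adjusted p = 3.47e-06). In TPM, NRCAM averaged 36.2 ± 2.41 in A549, and L1CAM averaged 64.3 ± 19.0 in H23, each second to UCHL1 among the 33 genes in its line. NCAM1, the CD56 antigen of neuroendocrine tumours, had 0, 0 and 4 counts in A549 and 9, 15 and 11 in H23. Its ratio of H23 to A549 was 5.74, with a 95% counting interval of 2.05 to 22.2, and edgeR with every gene kept gave an adjusted p of 0.0499.

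**Figure D3:**
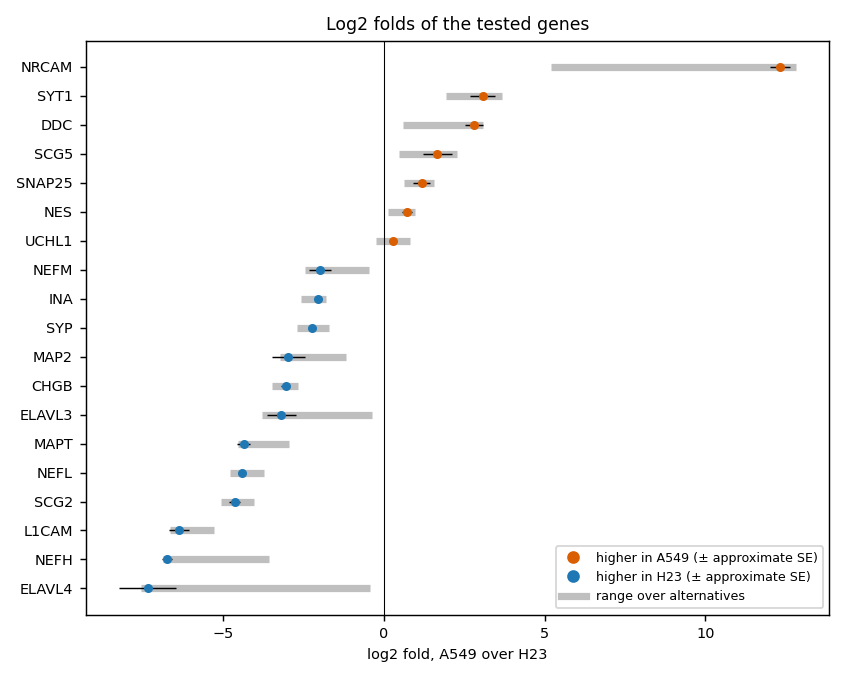
Log2 fold of A549 over H23 in CPM for the 19 tested genes, with approximate SE as thin bars and the range over alternatives, TPM scales with a pseudocount included, as grey bars. NRCAM at 12.33 lies farthest to the A549 side, ELAVL4, NEFH and L1CAM lie farthest to the H23 side, and the grey bar of UCHL1 crosses 0. The ELAVL4 fold is fitted against 0 counts in A549 and is no bound.

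Of 27 neural adhesion genes, 15 were tested, with 5 calls towards A549, 10 towards H23 and a median log2 fold of -1.025. CNTN1, a contactin and known partner of NRCAM on axons, had 362, 379 and 362 CPM in A549 and 0.238, 0.1002 and 0.0235 CPM in H23. Its log2 fold was 11.55 ± 0.36 (edgeR adjusted p = 6.00e-07), 12.59 without H23 replicate 1 and 10.75 with the GC and length trend removed. ALCAM and CADM1, adhesion molecules of neurons and epithelia, were higher in A549 at 4.46 ± 0.46 and 3.04 ± 0.17, and ALCAM was at 5.18 without H23 replicate 1 and 3.34 with the GC and length trend removed. Higher in H23 were NCAM2, at 0 in A549 and at least 67.7-fold higher in H23, NFASC at -5.09 ± 0.27 and the synaptic NLGN3 at -3.35 ± 0.22.

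Of the 5 neuronal intermediate filament genes, 4 were higher in H23 and NES was higher in A549 in CPM. NEFL, the light neurofilament subunit, had 2.83, 2.64 and 2.76 CPM in A549 and 52.4, 59.0 and 64.2 CPM in H23. NEFH, the heavy subunit, had 0.208, 0.280 and 0.259 CPM in A549 and 28.2, 26.4 and 26.4 CPM in H23. NEFM, the medium subunit that assembles with them, had 0.374, 0.160 and 0.172 CPM in A549 and 0.845, 1.002 and 0.965 CPM in H23. No A549 library reached any H23 library for these subunits, and NEFM stayed far below its partners in H23, at 0.523 ± 0.078 TPM against 24.98 ± 3.68 TPM for NEFL and 11.9 ± 0.18 TPM for NEFH.

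The log2 folds were -4.41 ± 0.12 for NEFL, -6.74 ± 0.15 for NEFH and -1.97 ± 0.35 for NEFM (edgeR adjusted p = 4.36e-07, 2.11e-07 and 0.00156). INA, alpha-internexin, the filament protein that joins neurofilaments in central neurons, had 16.1, 16.6 and 16.25 CPM in A549 and 76.6, 61.55 and 62.9 CPM in H23 (log2 fold -2.04 ± 0.11, edgeR adjusted p = 5.92e-06). In both lines INA was the most abundant of the 5 filament genes, at 5.68 ± 0.19 TPM in A549 and 34.04 ± 2.37 TPM in H23.

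NES, nestin of neural progenitors, ran the other way by a small margin. It had 15.2, 17.85 and 16.55 CPM in A549 and 8.11, 9.99 and 11.9 CPM in H23, with a log2 fold of 0.72 ± 0.16 (edgeR adjusted p = 0.00480). On log2(TPM + 1) the difference was 0.14 (adjusted p = 0.414), on log2(TPM + 0.1) it was 0.18 (0.415), and with TPM rescaled over genes of at least 200 bases it was 0.35 (0.0556). Over all alternatives the adjusted p of NES ranged from 3.14e-06 to 0.415 by edgeR, DESeq2 or limma. VIM, the vimentin filament with which nestin assembles, averaged 622 ± 22.6 TPM in A549 and 1820.0 ± 138 TPM in H23 (log2 fold in CPM -1.01 ± 0.11).

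MAPT and MAP2, microtubule proteins of axon and dendrite, were higher in H23. MAPT, tau, had 1.79, 1.76 and 1.47 CPM in A549 and 26.5, 36.8 and 40.1 CPM in H23. MAP2, of dendrites, had 0.790, 0.799 and 0.905 CPM in A549 and 11.4, 4.14 and 3.91 CPM in H23. The lines did not overlap for either, and H23 replicate 1 held the lowest MAPT and by far the highest MAP2 of its line. The log2 folds were -4.36 ± 0.21 for MAPT and -2.96 ± 0.51 for MAP2 (edgeR adjusted p = 3.23e-06 and 0.00139), and MAP2 was at -2.27 without H23 replicate 1. GAP43, a growth cone protein, had 0 counts in A549 and 5, 10 and 11 in H23, at least 5.68-fold higher, with an adjusted p of 0.00645 in edgeR with every gene kept. DCX, doublecortin of migrating neurons, and STMN2, a tubulin-binding protein of axons, had 1 count each as given above.

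STMN1, the widely expressed relative of STMN2, averaged 135 ± 4.05 TPM in A549 and 894 ± 138 TPM in H23 (log2 fold in CPM -2.19 ± 0.16). The list of 31 neuronal cytoskeleton genes had 30 tested, with 12 calls towards A549, 17 towards H23 and a median of -0.64. MAP1B, MAP7 and DPYSL2, microtubule-associated proteins of growing axons and epithelia, were higher in A549 at 2.93 ± 0.17, 2.87 ± 0.10 and 2.48 ± 0.08. KIF1A, the kinesin that carries dense-core granules and synaptic vesicle precursors, had 1.25, 1.04 and 0.647 CPM in A549 and 325, 583 and 593 CPM in H23, with a log2 fold of -8.99 ± 0.38 (edgeR adjusted p = 2.02e-06). DCLK1, a doublecortin relative, and TUBB4A, a beta-tubulin of brain, were at -6.35 ± 0.19 and -4.80 ± 0.21, with DCLK1 at -7.12 once the GC and length trend was removed.

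The neuronal ELAVL proteins bind AU-rich RNA and stabilise it, and all 3 were scarce. ELAVL4 (HuD) had 0 counts in A549 and 29, 13 and 32 in H23, and was at least 16.2-fold higher in H23. Its edgeR adjusted p was 0.00106, but it passed the filter through H23 alone, so that p is no separate support. ELAVL3 (HuC) had 4, 2 and 1 counts in A549 and 33, 21 and 49 in H23. Its log2 fold was -3.19 ± 0.45 (edgeR adjusted p = 0.000527), and -3.78 without A549 replicate 1. ELAVL2 (HuB) had 3, 2 and 5 counts in A549 and 14, 2 and 3 in H23, which overlapped, with an adjusted p of 0.774 in edgeR with every gene kept. The ubiquitous relative ELAVL1 (HuR) averaged 15.3 ± 0.47 TPM in A549 and 45.4 ± 6.04 TPM in H23 (log2 fold in CPM -1.01 ± 0.09), while no neuronal ELAVL gene reached 1 TPM in either line.

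Of 22 neuronal RNA-binding protein genes, 18 were tested, with 6 calls towards A549, 10 towards H23 and a median of -0.68. PTBP2, the neuronal splicing repressor that replaces PTBP1 in neurons, averaged 5.74 ± 0.18 TPM in A549 and 1.98 ± 0.80 TPM in H23. PTBP1 averaged 101 ± 6.21 TPM in A549 and 259 ± 58.8 TPM in H23. The log2 folds in CPM were 2.08 ± 0.29 for PTBP2 and -0.80 ± 0.14 for PTBP1, and the PTBP2 fold was 1.12 with the GC and length trend removed. PTBP3 and the RNA-binding QKI were higher in A549 at 2.05 ± 0.28 and 1.53 ± 0.16, and at 1.32 and 0.74 with that trend removed. NOVA2, a splicing factor of neurons, had a ratio of H23 to A549 of 334 with a 95% counting interval of 92.2 to 2760, and CELF5 and MSI1 were at -3.87 ± 0.21 and -2.93 ± 0.21.

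**Figure D4:**
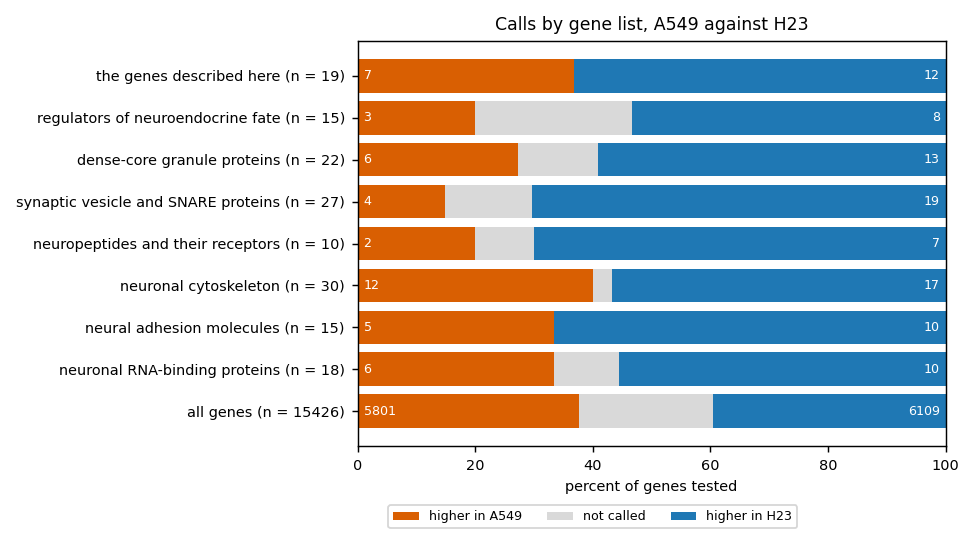
Percent of tested genes called higher in A549, not called, and called higher in H23, with the number of calls printed, for the 19 tested genes, each wider neuronal list and all 15426 genes tested. A549 calls are fewer than H23 calls in all 7 lists, at 4 against 19 of 27 tested genes in the synaptic vesicle and SNARE list. The margin is smaller in the cytoskeleton list, at 12 against 17 of 30, and in the RNA-binding list, at 6 against 10 of 18. Of all genes tested, 37.6% have calls towards A549 and 39.6% towards H23, and the A549 share of the cytoskeleton list is not below this. The lists were chosen with earlier results of these data known.

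UCHL1, the deubiquitinating enzyme PGP9.5 of neurons and neuroendocrine cells, was by far the most abundant of the 33 genes in both lines. It had 544, 577 and 540.1 CPM in A549 and 429.6, 485 and 452 CPM in H23. Among all genes it ranked 199 by mean TPM in A549 and 203 in H23, and it made up 89.8% of the summed TPM of the 33 genes in A549 and 77.4% in H23. The log2 fold in CPM was 0.28 ± 0.08 (edgeR adjusted p = 0.0135), but on log2(TPM + 1) it turned to -0.26 (adjusted p = 0.0323), at 624 ± 18.8 TPM in A549 and 747 ± 77.1 TPM in H23. Under upper quartile scaling it was 0.15 (adjusted p = 0.117), and without A549 replicate 2 the adjusted p was 0.0567. Over all alternatives its adjusted p ranged from 6.31e-06 to 0.833 by edgeR, DESeq2 or limma. Its direction between the lines therefore rests on the scaling. Without UCHL1 the other 32 genes summed to 68.1 to 75.8 TPM in A549 and 195 to 235 TPM in H23.

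By mean TPM, 8 of the 33 genes reached 1 in A549 and 13 did in H23, against 12170 and 12834 of all 27968 genes. Genes of at least 200 bases share a smaller remainder of TPM in A549, so this cut is not equal between the lines. Closest below it in A549 were SCG5 at 0.957 and SCG2 at 0.933 TPM. In A549, UCHL1 was followed by NRCAM at 36.2 ± 2.41, SNAP25 at 10.0 ± 0.54, SYT1 at 8.36 ± 0.73, INA at 5.68 ± 0.19 and NES at 3.27 ± 0.27 TPM. SNAP25 and SYT1 lay close, with 9.60 to 10.6 TPM for SNAP25 and 7.88 to 9.20 TPM for SYT1 over the A549 libraries. In H23, UCHL1 was followed by L1CAM, then by SCG2 at 34.2 ± 2.52 and INA at 34.04 ± 2.37 TPM, which lay within each other's spread, and then by NEFL, CHGB, NEFH, MAPT and SYP. The median SD over the mean of CPM was 7.86% in A549 and 20.6% in H23 for the 19 tested genes, and 5.06% in A549 and 16.4% in H23 for all tested genes. H23 replicate 1 was the highest H23 library for 8 of the 19 genes, the lowest for 8 and neither for 3.

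Transcript shares could be compared for few of these genes. Of the 33, 10 are listed with 1 transcript, and 6 (DDC, MAP2, MAPT, NRCAM, SNAP25 and SYT1) had at least 2 transcripts with enough counts among the 7539 genes in edgeR's transcript usage test. Of those 6, SYT1 and MAPT were called, where 25.8% of all genes tested for usage were. For SYT1, transcript NM_005639 made up 90.3%, 97.15% and 95.5% of the gene in A549 and 3.82%, 29.9% and 7.94% in H23. NM_001135806 made up 3.69%, 0.62% and 0% in A549 and 96.15%, 70.1% and 92.1% in H23. The lines did not overlap for either transcript, and the usage test gave an adjusted p of 0.000268 in edgeR, and at most 0.00857 under each alternative run for the usage test.

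**Figure D5:**
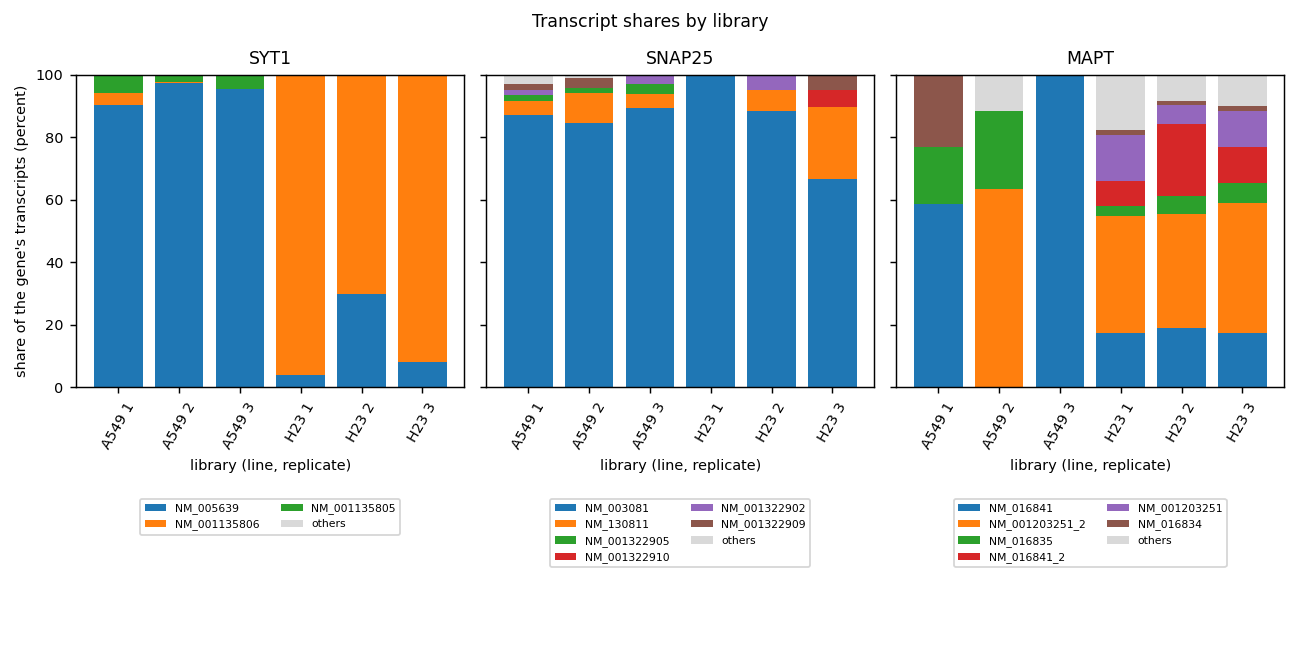
Share of each gene's transcripts, in percent, for SYT1, SNAP25 and MAPT, by library, A549 left of H23, with 1 color per transcript. NM_005639 fills 90.3% or more of SYT1 in each A549 library and NM_001135806 fills 70.1% or more in each H23 library.

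MAPT usage had an adjusted p of 0.0421 in edgeR, on 43, 44 and 34 counts of the gene in A549. By mean share its leading transcript in A549 was NM_016841, at 58.7%, 0% and 100%. In H23 it was NM_001203251_2, a second entry of NM_001203251 as the files list it, which held 37.5%, 36.5% and 41.6%. That H23 form held 0%, 63.3% and 0% in A549, so it also led in A549 replicate 2. The A549 libraries differed widely among themselves for these forms, and the H23 libraries lay close together. NM_016841 has a second entry too, NM_016841_2, at 0% in each A549 library and 8.02%, 23.2% and 11.4% in H23. The usage test took the entries of a transcript separately, so it cannot tell reads divided between them from a change of form. The MAPT call was lost without A549 replicate 1 (adjusted p = 0.180), A549 replicate 3 (0.125), H23 replicate 1 (0.154), H23 replicate 2 (0.157) or H23 replicate 3 (0.0959), and without A549 replicate 2 the adjusted p was 0.000718. SNAP25 kept NM_003081 as its leading form, at 87.0%, 84.5% and 89.15% in A549 and 100%, 88.3% and 66.7% in H23, with an adjusted p of 0.926 for usage in edgeR. For DDC, NM_001242889 held 0% in the A549 libraries and 100% in the H23 libraries, on 21 counts of the gene in H23, and no test of this share is given at such counts. NRCAM in A549 was mostly NM_005010, at 88.0%, 89.0% and 91.4%, and its 4 counts in H23 allow no share to be read.

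The 6 libraries are separate cultures, and the closest pair still differed by 3.72 in chi-square per gene, so no pair was taken as a repeat of one library. With 3 libraries against 3 an exact two-sided permutation test cannot give a p below 0.1, so the calls rest on the model fitted across all genes.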

How the data were processed

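RNA of 3 A549 and 3 H23 cultures was sequenced from stranded total RNA libraries, per the labels' protocols. Per the submitters' processing notes, STAR 2.6.0c and RSEM 1.3.0 were used with build hg19. Options, annotation release and strand setting are not given in the sources used here. Per the file headers, the deposited expected counts are reads per gene or transcript as RSEM estimated them, without depth scaling. The authors' TPM values are scaled for length and depth, and the authors' FPKM values were summed per column and otherwise not used. Shares of a gene's transcripts are percent values as deposited, and lengths are in bases.

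Expected counts were rounded, kept by filterByExpr (15426 of 27968 genes), scaled with TMM and compared with edgeR 4.0.16 in R 4.3.3 (robust quasi-likelihood F test, Benjamini-Hochberg over all genes tested, threshold 0.05). The common biological coefficient of variation was 0.168, and SEs are approximate, taken from the fold and F. The usage test was diffSpliceDGE in edgeR on 24779 transcripts. TPM alternatives used limma 3.58.1, and the alternatives included DESeq2 1.42.0, other scalings, filters, a replicate block and leaving out each library. TPM rescaled over genes of at least 200 bases and removal of a trend with GC content and length (known for 96.2% of tested genes) were added after the data had been seen. A fold against a line at 0 is set against 3 counts over the line, and such a bound leaves out counting error in the higher line. RSEM's division of reads shared by relatives adds an error outside the tests. The scripts were tested on simulated data.

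Groups and replicate numbers come from the labels. The genes and lists were chosen with earlier results of these data known. Every one of the 33 genes could be named, as could up to 3 genes per direction and list with the largest log2 fold among those called with at least 1 TPM in the higher line, plus REST, POU2F3, YAP1, ELAVL1, SNAP23, SYPL1, STMN1, VIM, PTBP1 and PTBP2. Some genes that the rule or the marker lists hold are not reported here. RCOR1, RCOR3, marker genes and antisense partners outside this rule were chosen after their values were seen. RefSeq promoter windows follow GRCh38.p14, whereas the deposited values follow hg19, so no other positions are given.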

Additional observations from a re-analysis of the deposited data

How the results depend on the processing

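Over 76 named genes and all alternatives, 1168 values kept direction and side of the threshold, 38 lost the call, and 10 reversed. The reversals were UCHL1 at -0.26 (log2(TPM + 1) and log2(TPM + 0.1)), DLL3 at -0.24 and -0.28 on those scales and -0.0069 with TPM rescaled over genes of at least 200 bases, SNAP47 at -0.23 and -0.24, and SNAP23 at -0.26 and -0.27 and, with the GC and length trend removed, -0.2. The rescaled TPM moved the median of all genes to -0.22 and upper quartile scaling moved it to -0.16. The count of the 33 genes called higher in A549 was 5 on the 3 TPM scales and 6 to 7 with single libraries left out. The H23 count was 13 on log2(TPM + 1) and log2(TPM + 0.1), 12 on rescaled TPM and 12 with any single library left out. Without a library, 11037 to 13774 genes were called in all, 1430 to 2307 for usage, and 1 to 3 of the 33 for usage. The genes called for usage changed. Without H23 replicate 1 they were SYT1 and NRCAM (edgeR usage adjusted p = 0.00166 for NRCAM). Without H23 replicate 3 they were SYT1, NEFM (0.0102) and NRCAM (0.0153). NRCAM had only 4 counts over all H23 libraries, so its usage calls cannot be read as a change of form. With every gene kept that had a count in any library, 30 of the 33 were fitted, with 8 calls towards A549 and 16 towards H23. Of all 21140 genes in that fit, 6399 had calls towards A549 and 6619 towards H23. No clear pairing of the libraries by replicate number was seen: same-number deviations correlated at 0.025, -0.0389 and 0.0544. Not every sample correlated best with its own number, although A549 replicates 1 and 3 did. With 3 libraries per line these values cannot exclude a pairing. With a replicate block, 11691 genes were called, 7 and 12 of the 33, and usage calls were 1249 over all genes and 1 of the 33, against 1944 and 2 without it. The MAPT usage p was 0.169 under the block. The cause was not tested. Depth limits the genes under about 10 counts per library, where intervals cover counting error only.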
